A study of Mus musculus with 10 samples.

Results

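The genes described here encode the nuclear subunits of the mitochondrial respiratory chain and ATP synthase. They were selected by symbol: those beginning Nduf followed by a, b, c, s or v and a digit (complex I), Sdha to Sdhd (complex II), symbols beginning Uqcr (complex III), Cox4 to Cox8 (complex IV) and Atp5 (complex V), alone on their row in both of the study's expression tables. This gave 80 of the 22125 names found in both tables, with 35 in complex I, 4 in complex II, 8 in complex III, 16 in complex IV and 17 in complex V. A further 3 symbols stood alone in only 1 table (Cox6b2 and Ndufb9 in osteoblasts, Cox7a1 in chondrocytes) and were not counted as members. The rule uses no measured value.

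The study sequenced RNA of mouse skeletal cells in 10 libraries, which form 4 groups. Calvarial osteoblasts, bone-forming cells dissociated from the calvaria of E17.5 embryos of strain C57BL/6, carried the genotype Runx2_cHom_KO (2 libraries) or Runx2_cHet_KO (2 libraries), each made from 1.7 ng of RNA. The genotype names read as homozygous and heterozygous conditional knockouts of Runx2, the transcription factor required for osteoblast formation. Both groups therefore carry a Runx2 knockout allele, and the driver of the deletion is not named in the sources used here. Rib chondrocytes of ICR mice at postnatal day 1 were sorted as Col10+ cells from Col10a1-mCherry transgenic mice, which mark hypertrophic chondrocytes (3 libraries), or as Col2+ cells from Col2a1-ECFP transgenic mice (3 libraries), from 100 ng of RNA. The osteoblast table gives FPKM (fragments scaled by transcript length and by mapped fragments) for each library, whereas the chondrocyte table gives 1 FPKM value per sort. Chondrocyte differences thus have no replicate check, no error and no test. The labels do not tie the libraries of a genotype to separate embryos, so p-values measure the spread between libraries, which may be technical.

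The respiratory chain passes electrons from NADH through complex I, and from succinate through complex II, by way of ubiquinone to complex III, cytochrome c and complex IV, where oxygen is reduced. Complexes I, III and IV pump protons across the inner mitochondrial membrane, and complex V uses the gradient to make ATP. Catalytic core subunits are accompanied by many small accessory subunits, and several complex IV subunits exist as ubiquitous and tissue-specific isoforms. Cartilage has no vessels and its chondrocytes rely largely on glycolysis, while osteoblasts are known to use both glycolysis and respiration. None of the 13 names searched for subunits encoded by mitochondrial DNA stood alone on a row of either expression table, so these subunits were not analysed.

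Runx2 was at 32.9 and 32.6 FPKM in the Runx2_cHom_KO libraries, against 43.4 and 53.9 FPKM in the Runx2_cHet_KO libraries, a difference short of the threshold (limma adjusted p = 0.0707). These values cover the whole gene and so cannot check a deletion of single exons. Col10a1 was at 2895 FPKM in the Col10+ sort and 59.5 FPKM in the Col2+ sort. Among osteoblast markers, Bglap was listed at 0 in both Runx2_cHom_KO libraries, and the 6 listed markers summed to 7952 and 8197 FPKM in Runx2_cHom_KO, against 11610 and 10244 FPKM in Runx2_cHet_KO. Most of each sum was Col1a1. All 6 were lower in both Runx2_cHom_KO libraries. Sp7 was at 12.8 and 11.5 FPKM in Runx2_cHom_KO, against 39.8 and 50.7 FPKM in Runx2_cHet_KO (limma adjusted p = 0.00988). Library totals were alike in the osteoblasts, with a summed FPKM between 536770 and 567272. The 20 most abundant rows held 50.8% of the total in the Col10+ sort and 26.5% in the Col2+ sort, and the FPKM of all other genes are relative to these totals.

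The first comparison asked how Runx2_cHom_KO osteoblasts differ from Runx2_cHet_KO osteoblasts. Respiratory chain genes were lower in Runx2_cHom_KO across all 5 complexes, by modest amounts. Their summed level was 3860 and 3852 FPKM in the Runx2_cHom_KO libraries, against 4949 and 4633 FPKM in the Runx2_cHet_KO libraries, so that the groups did not overlap. The sum averaged 3856 ± 6.13 FPKM in Runx2_cHom_KO and 4791 ± 223 FPKM in Runx2_cHet_KO (SD, n = 2 each), 1.24-fold lower in Runx2_cHom_KO. Single members that fell included Uqcr11, a small subunit of complex III, which was 1.79-fold lower, and Ndufa12, an accessory subunit of complex I, which was 1.75-fold lower. In these bulk libraries fewer cells of a type and less RNA per cell cannot be told apart.

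Of the 80 members, 76 passed the filter of 1 FPKM or more in at least 2 libraries. The other 4 were Cox6a2, Cox7b2, Cox8b and Cox8c, tissue-specific isoforms described below. Differences are given as log2(FPKM + 1), Runx2_cHom_KO minus Runx2_cHet_KO. The median difference of the 76 was -0.32, with a range from -0.89 to 0.37, beside a median of -0.03 over all 11909 genes tested and of -0.07 over the 2513 genes at a mean level of 20 FPKM or more. The difference was below 0 in 69 of 76 members (90.8%), whereas 53.0% of all tested genes and 58.6% of genes at that level were below 0. In 54 members (71.1%) neither Runx2_cHom_KO library reached the lower Runx2_cHet_KO library, against 31.3% of all tested genes and 42.5% of genes at 20 FPKM or more. The reverse held for 4 members (5.26%), against 26.7% of tested genes.

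The replicates of a genotype lay closer together than the genotypes did. Over the 76 members, the median difference from the Runx2_cHet_KO mean was -0.33 in Runx2_cHom_KO library 1 and -0.27 in library 2. Between replicates the median difference was -0.02 for the Runx2_cHom_KO libraries (library 2 minus library 1) and -0.10 for the Runx2_cHet_KO libraries. Library 1 of Runx2_cHet_KO thus held the highest levels of these genes for the group as a whole.

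**Figure D1:**
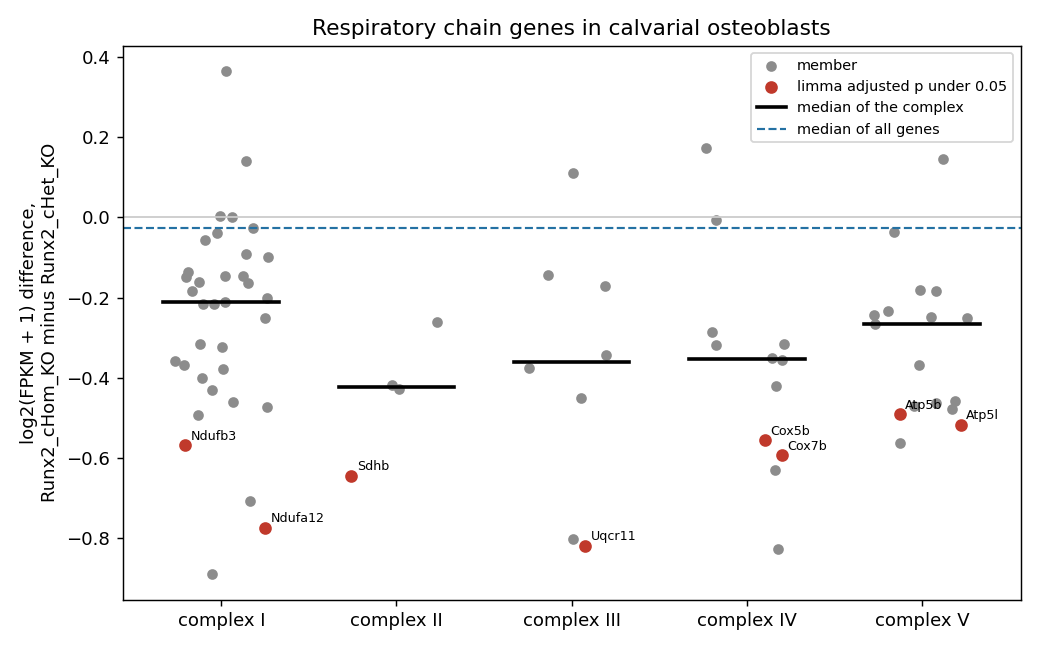
Difference in log2(FPKM + 1) between Runx2_cHom_KO and Runx2_cHet_KO osteoblasts (y axis) for the 76 respiratory chain genes tested, by complex (x axis). Each point is a gene, black bars are medians of the complexes (from -0.42 in complex II to -0.21 in complex I), the dashed line is the median of all tested genes (-0.03), and the 8 red genes had a limma adjusted p under 0.05.

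All 5 complexes had negative medians. The median difference was -0.21 in complex I (31 of 35 members below 0), -0.42 in complex II (4 of 4), -0.36 in complex III (7 of 8), -0.35 in complex IV (11 of 12) and -0.27 in complex V (16 of 17). The median of complex V is the value of Atp5sl, a gene of low level that RefSeq lists as Dmac2. The values next to it in complex V were -0.37 (Atp5a1) and -0.25 (Atp5j). The value of the complex V median thus depended on Atp5sl being counted as a member. The summed level of complex II was 98.96 ± 3.09 FPKM in Runx2_cHom_KO and 135 ± 10.5 FPKM in Runx2_cHet_KO, 1.36-fold lower in Runx2_cHom_KO. That of complex I was 1308 ± 13.7 FPKM in Runx2_cHom_KO and 1496 ± 27.8 FPKM in Runx2_cHet_KO, 1.14-fold lower (SD, n = 2 each). The sums of complexes III, IV and V were 1.30-fold, 1.33-fold and 1.26-fold lower. Within a complex the members spread more widely than the medians of the complexes did, and differences between complexes were not tested. Their order was not stable: with single libraries left out the median of complex V lay between -0.40 (without Runx2_cHom_KO library 1) and -0.32, and that of complex I between -0.28 and -0.19.

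At a limma adjusted p under 0.05 (Benjamini-Hochberg over all genes), 8 of the 76 members fell (10.5%) and 0 rose. Over all tested genes 3.54% were called lower and 3.78% higher, and among genes at 20 FPKM or more 6.69% and 5.69%. At an unadjusted p under 0.05, 32 members were lower and 0 higher, against 14.1% and 12.7% of tested genes. None of the 8 reached a 2-fold change, a limit that 1.39% of tested genes passed downwards and 2.30% upwards.

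The genes that fell came from every complex. In complex I, Ndufa12 had 17.45 and 17.3 FPKM in Runx2_cHom_KO, against 31.2 and 29.8 FPKM in Runx2_cHet_KO (log2 difference -0.78, SE 0.10, limma adjusted p = 0.0191). Ndufb3, an accessory subunit of the membrane arm, had 13.9 and 14.04 FPKM in Runx2_cHom_KO, against 21.6 and 20.8 FPKM in Runx2_cHet_KO (adjusted p = 0.0384). In both genes the replicates lay close together and the genotypes were well apart. In complex II, Sdhb, the iron-sulphur subunit, had 26.1 and 23.3 FPKM in Runx2_cHom_KO, against 41.8 and 36.5 FPKM in Runx2_cHet_KO (log2 difference -0.65, SE 0.12, limma adjusted p = 0.0407). In complex III, Uqcr11 had 44.4 and 37.9 FPKM in Runx2_cHom_KO, against 80.4 and 66.6 FPKM in Runx2_cHet_KO (log2 difference -0.82, SE 0.14, limma adjusted p = 0.0332). It was the largest fall among the called members.

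In complex IV, Cox5b, a subunit on the matrix side, had 100.5 and 110.5 FPKM in Runx2_cHom_KO, against 161 and 149.8 FPKM in Runx2_cHet_KO (log2 difference -0.56, SE 0.11, limma adjusted p = 0.0427). Cox7b, a small membrane subunit, had 33.5 and 36.8 FPKM in Runx2_cHom_KO, against 54.96 and 52.1 FPKM in Runx2_cHet_KO (adjusted p = 0.0359). Complex V contributed the catalytic beta subunit and a subunit of the membrane sector. Atp5b, the beta subunit, had 114 and 109.5 FPKM in Runx2_cHom_KO, against 158 and 156 FPKM in Runx2_cHet_KO (log2 difference -0.49, SE 0.10, limma adjusted p = 0.0432). Atp5l had 48.4 and 48.4 FPKM in Runx2_cHom_KO, against 72.6 and 66.9 FPKM in Runx2_cHet_KO (adjusted p = 0.0427). The adjusted p-values of the 8 genes lay between 0.0191 and 0.0432, just inside the threshold for most of them.

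**Figure D2:**
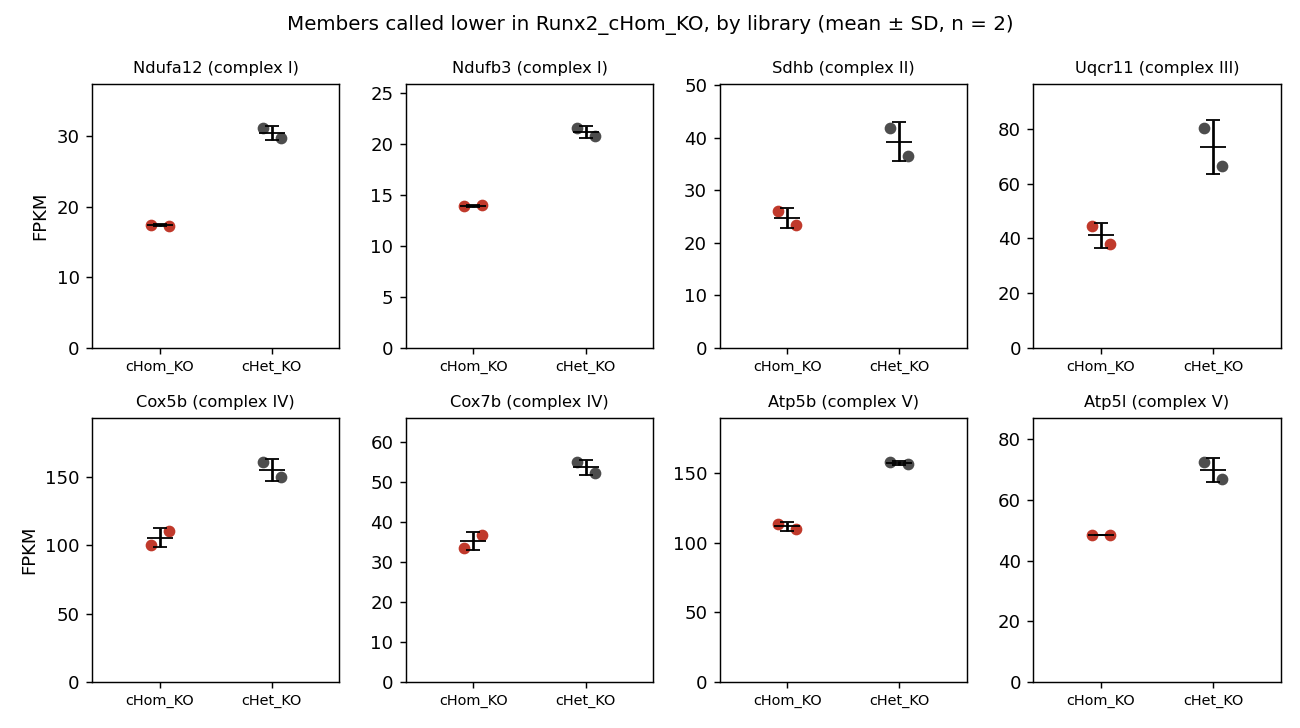
FPKM (y axis, from 0) of the 8 respiratory chain genes called lower in Runx2_cHom_KO osteoblasts, with 1 point per library, and bars for the mean ± SD of 2 libraries. The genotypes do not overlap in any of these genes, as for Ndufa12 with 17.45 and 17.3 FPKM against 31.2 and 29.8 FPKM.

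The calls depended on single libraries, for the members as for all genes. Without Runx2_cHom_KO library 1 limma called 0 of all 11909 genes, and without Runx2_cHom_KO library 2 it called 1 lower and 0 higher, so that the 0 members called in these fits say nothing about the members in particular. For these fits limma gave the members a median difference of -0.27 and -0.33, beside -0.04 and -0.005 over all tested genes. Without Runx2_cHet_KO library 2 it called 16 members lower and 1 higher, among 553 genes lower and 617 higher. Without Runx2_cHet_KO library 1 it called 6 members lower, of which 3 were among the 8, among 415 genes lower and 581 higher.

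Promoters of the members were searched for 3 motifs because NRF1, GABP and YY1 are factors known to act at promoters of respiratory chain genes. RefSeq windows of build GRCm38.p6, from 250 bases before to 50 bases after the start site, matched 66 of the 80 members. The letters CCGGAAG of the GABP motif, or CTTCCGG on the other strand, were in 16 of the 66 (24.2%), against 8.86% of all 32851 windows. The NRF1 motif, GCGC and GCGC with any 2 bases between them, which reads the same on both strands, was in 18 (27.3%, against 6.23%), and YY1's AAGATGGC, or GCCATCTT, was in 11 (16.7%, against 2.75%). These shares are not like for like. A member was counted if any of its windows matched, whereas the other share counts windows and is not limited to genes expressed here. Of the 8 called genes, 3 held the GABP letters and 0 held either other motif. Members with the GABP letters had a median difference of -0.34 in the osteoblasts (n = 16) and those without it -0.26 (n = 48). For NRF1 the medians were -0.25 with the motif (n = 18) and -0.32 without it (n = 46), and for YY1 -0.25 (n = 11) and -0.32 (n = 53), so the order was the opposite for these motifs. None of these splits was tested. The windows of Uqcr11, Sdhb and Atp5l, the 3 called genes with the GABP letters, are printed below 5′ to 3′ in the direction of transcription. That of Atp5e is added, which holds the same letters but was not lower in Runx2_cHom_KO. The other called genes held none of the 3 motifs and are not printed. Capitals mark the GABP letters on either strand, and a match is a description of the sequence only. None of these 4 windows held the other motifs. Uqcr11 lies at chr10:80406772-80407071 (minus strand), Sdhb at chr4:140961021-140961320 (plus strand), Atp5l at chr9:44920693-44920992 (minus strand) and Atp5e at chr2:174464052-174464351 (minus strand).
Uqcr11: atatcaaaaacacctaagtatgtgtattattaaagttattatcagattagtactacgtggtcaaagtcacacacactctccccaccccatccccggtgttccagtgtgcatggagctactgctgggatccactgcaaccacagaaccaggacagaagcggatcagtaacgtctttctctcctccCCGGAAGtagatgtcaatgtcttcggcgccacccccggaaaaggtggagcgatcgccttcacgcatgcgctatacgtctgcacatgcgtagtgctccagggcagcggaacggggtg
Sdhb: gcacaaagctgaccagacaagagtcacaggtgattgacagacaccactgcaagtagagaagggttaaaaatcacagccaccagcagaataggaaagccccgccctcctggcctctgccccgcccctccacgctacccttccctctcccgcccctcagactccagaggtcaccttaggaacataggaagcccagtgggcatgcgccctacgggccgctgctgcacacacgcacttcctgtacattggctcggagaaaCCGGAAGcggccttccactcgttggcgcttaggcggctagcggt
Atp5l: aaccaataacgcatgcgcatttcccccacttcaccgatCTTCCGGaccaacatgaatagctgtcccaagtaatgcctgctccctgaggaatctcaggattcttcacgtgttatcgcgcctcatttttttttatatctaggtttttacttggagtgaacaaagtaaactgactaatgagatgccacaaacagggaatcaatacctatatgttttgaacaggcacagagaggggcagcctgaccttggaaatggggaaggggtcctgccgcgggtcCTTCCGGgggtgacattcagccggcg
Atp5e: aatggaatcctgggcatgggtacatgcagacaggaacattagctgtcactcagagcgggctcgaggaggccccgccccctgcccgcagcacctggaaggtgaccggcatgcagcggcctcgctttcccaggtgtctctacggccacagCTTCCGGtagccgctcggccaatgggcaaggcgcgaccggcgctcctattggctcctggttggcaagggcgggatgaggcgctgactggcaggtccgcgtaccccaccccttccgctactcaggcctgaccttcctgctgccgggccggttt

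A list of 18 subunits was examined apart, made of the conserved subunits of complex I that bind NADH or iron-sulphur clusters or lie beside them, all of complex II, Uqcrc1 and Uqcrfs1, Cox5a and Cox5b, and the F1 subunits Atp5a1, Atp5b and Atp5c1. The catalytic core of complex IV is encoded by mitochondrial DNA and has no member in it. All 18 were lower in both Runx2_cHom_KO libraries than in either Runx2_cHet_KO library, with a median difference of -0.40 and a range from -0.83 to -0.15. The same held for 31.3% of all tested genes and 42.5% of genes at 20 FPKM or more. By the test, 3 of the 18 fell (Sdhb, Cox5b and Atp5b), and 0 rose, beside 3.54% of all tested genes called lower and 6.69% of genes at 20 FPKM or more. Ndufv1, the subunit of complex I that binds NADH, had 19.9 and 17.2 FPKM in Runx2_cHom_KO, against 24.9 and 27.0 FPKM in Runx2_cHet_KO (limma adjusted p = 0.0829). Ndufs1, the largest iron-sulphur subunit, had 9.12 and 10.7 FPKM in Runx2_cHom_KO, against 14.9 and 13.3 FPKM in Runx2_cHet_KO (limma adjusted p = 0.0990). These 2 genes did not overlap between genotypes and did not pass the test.

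Sdha, the flavoprotein of complex II, had 31.0 and 35.2 FPKM in Runx2_cHom_KO, against 39.6 and 39.9 FPKM in Runx2_cHet_KO (limma adjusted p = 0.205). The membrane anchors Sdhc and Sdhd differed by -0.43 and -0.42 (adjusted p = 0.0780 and 0.252). Complex II, which also serves the citrate cycle, was thus lower in all 4 subunits, with a call in 1. In complex III, Uqcrc1, a core protein, had 34.2 and 33.2 FPKM in Runx2_cHom_KO, against 48.8 and 44.1 FPKM in Runx2_cHet_KO (limma adjusted p = 0.0658). Uqcrfs1, the Rieske iron-sulphur protein, had 23.9 and 20.8 FPKM in Runx2_cHom_KO, against 25.4 and 25.1 FPKM in Runx2_cHet_KO (limma adjusted p = 0.400).

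Some of the largest differences stood beside a wide spread between replicates and were not called. Ndufa4, first described in complex I and since assigned to complex IV, had 24.6 and 23.8 FPKM in Runx2_cHom_KO, against 56.7 and 36.9 FPKM in Runx2_cHet_KO (log2 difference -0.89, SE 0.21, limma adjusted p = 0.0640). Uqcrq, a small subunit of complex III, had 62.9 and 62.6 FPKM in Runx2_cHom_KO, against 137 and 88.6 FPKM in Runx2_cHet_KO (limma adjusted p = 0.0827). In both genes Runx2_cHet_KO library 1 was far above library 2. Cox5a, a matrix-side subunit of complex IV, had 19.6 and 11.5 FPKM in Runx2_cHom_KO, against 28.1 and 26.7 FPKM in Runx2_cHet_KO (limma adjusted p = 0.104). Here the Runx2_cHom_KO libraries differed more than the others.

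In complex V the F1 subunits Atp5a1 and Atp5c1 were also lower without passing the test. Atp5a1, the alpha subunit, had 115 and 109.8 FPKM in Runx2_cHom_KO, against 151 and 141 FPKM in Runx2_cHet_KO (limma adjusted p = 0.0887). Atp5g1, Atp5g2 and Atp5g3 encode the same mature protein, the c subunit of the membrane ring. Atp5g1 had 23.9 and 30.1 FPKM in Runx2_cHom_KO, against 41.7 and 38.6 FPKM in Runx2_cHet_KO (log2 difference -0.56, limma adjusted p = 0.0763), and Atp5g3 differed by -0.46 (adjusted p = 0.0800). Atp5g2 differed by -0.04, with overlapping groups (adjusted p = 0.859), so the 3 genes for this protein did not have like values. Atp5s and Atp5sl match the naming rule but are listed as Dmac2l and Dmac2 in the RefSeq gene table, and both were under 5 FPKM in every osteoblast library.

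A few members had higher values in Runx2_cHom_KO, none of them called. Both Runx2_cHom_KO libraries lay above both Runx2_cHet_KO libraries in 4 genes. Uqcrh, the hinge protein of complex III, had 116 and 117 FPKM in Runx2_cHom_KO, against 108 and 107 FPKM in Runx2_cHet_KO (limma adjusted p = 0.500). Cox7a2l, which assists the assembly of supercomplexes, had 55.5 and 51.3 FPKM in Runx2_cHom_KO, against 43.9 and 50.8 FPKM in Runx2_cHet_KO (limma adjusted p = 0.405). The others were Ndufa6, an accessory subunit of complex I, at 1.10-fold, and Atp5e, the epsilon subunit of complex V, at 1.11-fold higher in Runx2_cHom_KO.

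Related gene lists were measured for comparison. Over all tested genes 53.0% were below 0, 3.54% were called lower and 3.78% higher. Of 8 subunits and carriers outside the naming rule, 8 were below 0 in Runx2_cHom_KO (median -0.34) and 1 fell by the test: Atpif1, the inhibitor of complex V, had 262 and 277 FPKM in Runx2_cHom_KO, against 393 and 380.2 FPKM in Runx2_cHet_KO (limma adjusted p = 0.0428). Of 15 measured genes of the citrate cycle and pyruvate dehydrogenase, 12 were below 0 (median -0.37), 2 fell and 0 rose. Those were Fh1, fumarate hydratase, at 12.2 and 11.5 FPKM in Runx2_cHom_KO, against 19.0 and 20.5 FPKM in Runx2_cHet_KO (limma adjusted p = 0.0314), and Mdh2, malate dehydrogenase, at 60.9 and 63.4 FPKM in Runx2_cHom_KO, against 87.2 and 86.0 FPKM in Runx2_cHet_KO (limma adjusted p = 0.0457). Of 32 assembly factors tested, 25 were below 0 (median -0.14) and 0 were called. Of 11 regulators tested, such as Tfam, which activates mitochondrial transcription, and Nrf1, 7 were below 0 (median -0.16) and 0 were called.

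Markers of other cells differed between libraries. All 10 skeletal muscle markers were higher in both Runx2_cHom_KO libraries, and their summed level was 65.0 and 86.4 FPKM in Runx2_cHom_KO, against 4.24 and 6.11 FPKM in Runx2_cHet_KO, where Acta1 was listed at 0 in library 1 and Ckm in both. All 8 that were tested were called higher. All 5 endothelial markers were also higher in both Runx2_cHom_KO libraries, with sums of 42.4 and 35.8 FPKM, against 21.0 and 5.03 FPKM in Runx2_cHet_KO. The 6 macrophage markers summed to 49.8 and 61.1 FPKM in Runx2_cHom_KO, against 304 and 46.3 FPKM in Runx2_cHet_KO, so that Runx2_cHet_KO library 1 stood apart. Without that library the median difference of the 76 members was -0.25, with 64 below 0. Among 6 chondrocyte markers, Acan was called higher, at 60.0 and 60.2 FPKM in Runx2_cHom_KO, against 31.5 and 34.4 FPKM in Runx2_cHet_KO (limma adjusted p = 0.0172). Col2a1 and Col9a1 were also higher in both Runx2_cHom_KO libraries, Col11a2 was lower in both, and the 6 summed to 308 and 433 FPKM in Runx2_cHom_KO, against 349 and 196 FPKM in Runx2_cHet_KO. The 4 hypertrophic chondrocyte markers summed to 481 and 703 FPKM in Runx2_cHom_KO, against 1120 and 723 FPKM in Runx2_cHet_KO, but Col10a1 alone was at 69.7 and 98.7 FPKM in Runx2_cHom_KO, against 0.202 and 26.9 FPKM in Runx2_cHet_KO (limma adjusted p = 0.409). The 6 fat markers summed to 46.5 and 18.0 FPKM in Runx2_cHom_KO, against 13.6 and 4.85 FPKM in Runx2_cHet_KO, most of it Fabp4, with Adipoq listed at 0 in 3 of the 4 libraries. Summed levels of the 4 osteoclast markers were 87.6 and 83.8 FPKM in Runx2_cHom_KO, against 95.8 and 93.9 FPKM in Runx2_cHet_KO. The erythroid and neutrophil sums overlapped between genotypes and were at or below 12.4 FPKM in every library. The muscle isoform Cox6a2 was at 0.136 and 0.891 FPKM in Runx2_cHom_KO, against 1.11 and 0.532 FPKM in Runx2_cHet_KO, and Cox8b was listed at 0 in both Runx2_cHom_KO libraries. The part of these cells in the respiratory chain result was not tested.

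The second comparison set Col10+ rib cells beside Col2+ rib cells. Most respiratory chain genes stayed within 2-fold, and the members past that limit were the isoforms Ndufa4l2 and Cox4i2. Complex IV genes were mostly higher in Col10+ cells, while complex III was divided. The summed level of all members was 6235 FPKM in the Col10+ sort and 5862 FPKM in the Col2+ sort, 1.06-fold higher in Col10+. The column totals were not alike, at 712295 FPKM in Col10+ and 567147 FPKM in Col2+. As a share of the summed FPKM of named rows, the members held 1.06% in Col10+ and 1.13% in Col2+, the opposite order. Rows with no gene name held 17.0% of the total in Col10+ and 8.48% in Col2+. The median over the 8354 genes that reached 5 FPKM in either sort was -0.31 (log2 difference, Col10+ minus Col2+), so values are also given relative to it, as centred differences.

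Of the 80 members, 76 reached 1 FPKM in either sort, with a median difference of 0.08, or 0.39 when centred, beside -0.16 over all 11876 genes at that level. Among 75 members at 5 FPKM or more, 2 were at least 2-fold higher in Col10+ cells (2.67%) and 0 were lower. Over all genes at that level 13.8% were higher and 14.2% lower. With centred columns 6 members passed the limit upwards, which adds Cox5b, Cox6a1, Ndufb8 and Uqcr11, and 0 passed it downwards. Below 0 were 28 of the 75 members (37.3%) as deposited, against 65.2% of all genes, and 14 (18.7%) when centred, which sets the median of all genes at 0.

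**Figure D3:**
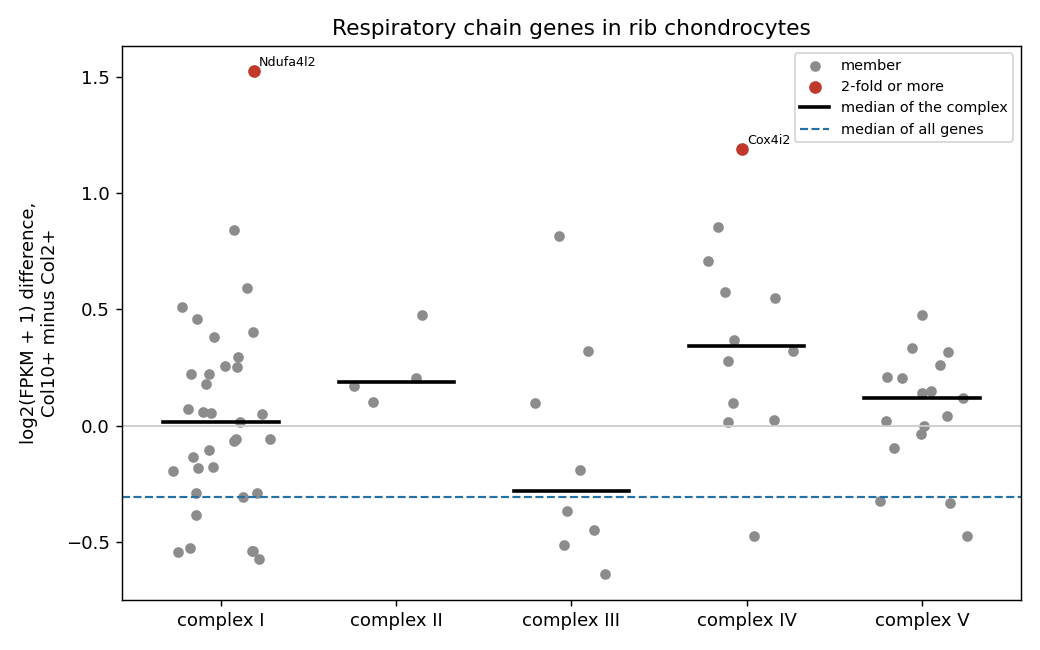
Difference in log2(FPKM + 1) between the Col10+ and Col2+ sorts (y axis) for the 76 respiratory chain genes at 1 FPKM or more, by complex (x axis), with 1 point per gene and no replicates. Black bars are medians of the complexes, from -0.28 in complex III to 0.34 in complex IV, the dashed line is the median of all genes at 5 FPKM or more (-0.31), and the red genes Ndufa4l2 and Cox4i2 passed 2-fold.

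The complexes differed in order from the osteoblast comparison. The median difference was 0.34 in complex IV (0.65 centred), with 11 of 12 members above 0 on both scales. It was 0.19 in complex II (0.49 centred), with 4 of 4 above 0, and 0.12 in complex V (0.42 centred), with 11 of 17 above 0, or 14 when centred. In complex I it was 0.01 (0.32 centred), with 18 of 35 above 0, or 28 when centred. Complex III had a median of -0.28, which became 0.03 when centred, with 3 of 8 members above 0, or 4 when centred. These are values of 1 pair of columns, and their order was not tested.

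In complex IV, Cox6a1, the ubiquitous form of subunit 6a, was at 240.3 FPKM in Col10+ cells and 132 FPKM in Col2+ cells, 1.82-fold higher in Col10+. Cox5b was at 127 FPKM in Col10+ and 77.6 FPKM in Col2+ cells, Cox6b1 at 186 and 125 FPKM, and Cox8a at 198 and 135 FPKM in the same order. Cox4i1, the main form of subunit 4, was close in both, at 259.6 FPKM in Col10+ and 243 FPKM in Col2+ cells. Cox7a2l was the only one of the 12 measured complex IV members below 0, at 66.3 FPKM in Col10+ and 92.5 FPKM in Col2+ cells, 1.39-fold lower. Ndufa4, counted in complex I by its symbol though since assigned to complex IV, was also below 0, at -0.14 (0.17 centred).

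In complex III the small subunits Uqcrh, Uqcrb and Uqcrq were lower in Col10+ cells and Uqcr11 was higher. Uqcrh was at 139 FPKM in Col10+ and 218 FPKM in Col2+ cells, 1.56-fold lower, and Uqcrb at 96.6 and 138 FPKM, 1.43-fold lower. Uqcr11 was at 109 FPKM in Col10+ and 61.5 FPKM in Col2+ cells, 1.77-fold higher. The differences of Uqcrh, Uqcrb and Uqcrq stayed below 0 when centred, at -0.33, -0.21 and -0.14.

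In complex I, Ndufb8, an accessory subunit of the membrane arm, was at 87.4 FPKM in Col10+ and 48.4 FPKM in Col2+ cells, 1.81-fold higher. At the other end, Ndufa12 was at 63.1 FPKM in Col10+ and 94.2 FPKM in Col2+ cells, 1.49-fold lower, and Ndufa5 at 30.5 and 44.9 FPKM, 1.47-fold lower. Both stayed below 0 when centred, at -0.27 and -0.24. In complex II, Sdhc was at 45.8 FPKM in Col10+ and 32.6 FPKM in Col2+ cells, and in complex V, Atp5h, a subunit of the peripheral stalk, at 139 and 99.9 FPKM, each 1.40-fold higher in Col10+. The list of 18 subunits named above had a median of 0.16, with 13 above 0 and a range from -0.29 to 0.71.

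Related lists were again measured for comparison. Of 24 assembly factors at 5 FPKM or more, 0 were 2-fold higher and 4 were 2-fold lower in Col10+ cells: Ndufaf2, Ndufaf4, Cox11 and Ttc19, of which the first 3 were also 2-fold lower when centred. These 4 of 24 stand beside 14.2% of all genes, a like share. Ndufaf4, which acts in complex I assembly, was at 3.54 FPKM in Col10+ and 14.6 FPKM in Col2+ cells. Of 9 regulators, 2 were lower: Tfam, at 4.04 FPKM in Col10+ and 17.8 FPKM in Col2+ cells, and the transcription factor Tfb2m, at 5.79 and 17.3 FPKM, both also past the limit when centred. The regulator Esrra, at 7.42 FPKM in Col10+ and 3.44 FPKM in Col2+ cells, passed it upwards only when centred (1.23). Among carriers, Cycs (cytochrome c) was at 18.6 FPKM in Col10+ and 40.4 FPKM in Col2+ cells, and within 2-fold when centred. Atpif1, at 108 FPKM in Col10+ and 55.8 FPKM in Col2+ cells, passed the limit upwards only when centred (1.25). Of 16 genes of the citrate cycle and pyruvate dehydrogenase 0 passed the limit.

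Markers of several other cell types stood far apart between the sorts. Endothelial markers (5) summed to 74.7 FPKM in Col10+ and 0.191 FPKM in Col2+ cells, and all 5 were 2-fold higher in Col10+. The 4 osteoclast markers summed to 280 and 20.1 FPKM, the 6 fat markers to 164 and 13.1 FPKM and the 10 skeletal muscle markers to 101 and 37.7 FPKM, in the same order. The sum of the 5 chondrocyte markers found there went the other way, at 34711 and 49613 FPKM, most of it Col2a1 (31532 and 44205 FPKM). Sox9 and Col9a1 were also lower in Col10+. In contrast, Matn1 was at 122 and 22.0 FPKM, and Acan was level at 1104 and 1089 FPKM. Summed levels in Col10+ and Col2+ cells were 3497 and 0.229 FPKM for 5 neutrophil markers, 1455 and 0.272 FPKM for 6 macrophage markers, 64.2 and 0.105 FPKM for 4 erythroid markers, and 3728 and 18.1 FPKM for 6 osteoblast markers. No neutrophil or macrophage marker was at 0 in the Col10+ sort, whereas 2 and 4 of them were at 0 in the Col2+ sort. The part of these cells in the respiratory chain values was not tested.

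Absolute levels differed between complexes more than between groups. The median member of complex V was at 66.7 and 64.9 FPKM in Runx2_cHom_KO, against 75.8 and 74.9 FPKM in Runx2_cHet_KO, and that of complex I at 28.03 and 29.5 FPKM in Runx2_cHom_KO, against 36.1 and 35.3 FPKM in Runx2_cHet_KO. In the sorts the median member of complex V was at 136 FPKM in Col10+ and 117 FPKM in Col2+ cells, and that of complex I at 41.8 and 39.5 FPKM. Complex II lay near complex I, with 44.2 FPKM in Col10+ and 36.2 FPKM in Col2+ cells. In every column the median members of complexes III, IV and V were above those of complexes I and II. Processed copies of many of these genes exist in the genome, so levels of single genes carry an uncertainty that was not measured.

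The paired isoforms gave the largest differences of any members between the sorts. Ndufa4l2, a paralogue of Ndufa4 known as a target of hypoxia-inducible factor, was at 45.3 FPKM in Col10+ and 15.1 FPKM in Col2+ cells, 3.00-fold higher in Col10+ (log2 difference 1.52, or 1.83 centred). Ndufa4 was at 115 FPKM in Col10+ and 127 FPKM in Col2+ cells, so the ratio of Ndufa4l2 to Ndufa4 was 0.393 in Col10+ and 0.119 in Col2+ cells. Cox4i2, the form of subunit 4 known to respond to low oxygen, was at 16.3 FPKM in Col10+ and 6.60 FPKM in Col2+ cells, 2.47-fold higher. Its ratio to Cox4i1 was 0.0628 in Col10+ and 0.0272 in Col2+ cells, so Cox4i1 remained the main form.

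In osteoblasts Ndufa4l2 exceeded Ndufa4 in every library. Ndufa4l2 was at 127 and 118 FPKM in Runx2_cHom_KO, against 70.9 and 127 FPKM in Runx2_cHet_KO, with overlapping groups (limma adjusted p = 0.457). Its ratio to Ndufa4 was 5.15 and 4.96 in Runx2_cHom_KO, against 1.25 and 3.43 in Runx2_cHet_KO. Without Runx2_cHet_KO library 1 the difference of Ndufa4l2 was -0.05, in place of 0.37 with all libraries. Without Runx2_cHet_KO library 2 it was called higher in Runx2_cHom_KO. Cox4i2 was at 5.72 and 6.27 FPKM in Runx2_cHom_KO, against 6.64 and 8.49 FPKM in Runx2_cHet_KO (limma adjusted p = 0.329). Its ratio to Cox4i1 was 0.0463 and 0.0524 in Runx2_cHom_KO, against 0.0430 and 0.0543 in Runx2_cHet_KO, with overlapping groups.

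**Figure D4:**
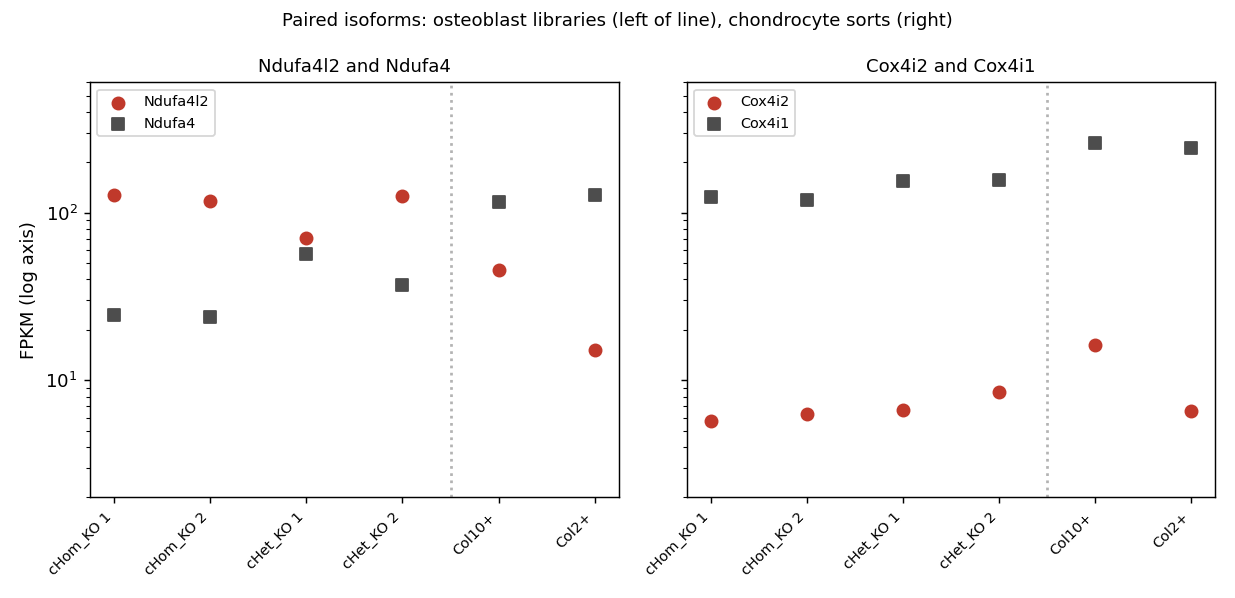
FPKM on a log axis (y) of Ndufa4l2 and Ndufa4 (left panel) and of Cox4i2 and Cox4i1 (right panel) in each osteoblast library and each chondrocyte sort (x), 1 value per point. Ndufa4l2 lies above Ndufa4 in the 4 osteoblast libraries and below it in the sorts, where it is at 45.3 FPKM in Col10+ and 15.1 FPKM in Col2+ cells. The 2 tables were normalized separately.

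Most other tissue-specific forms were near or at 0, with Cox6b2 as an exception. Cox7b2, a testis form, was at 0 in Col10+ cells and in the osteoblasts of both genotypes, and Cox8b and Cox8c were listed at 0 in both sorts and in every osteoblast library except Runx2_cHet_KO library 2, at 0.690 and 1.51 FPKM. Cox6b2, known from testis and alone on its row in the osteoblast table only, was at 21.6 and 19.8 FPKM in Runx2_cHom_KO, against 22.6 and 37.2 FPKM in Runx2_cHet_KO (limma adjusted p = 0.274). Its ratio to the ubiquitous Cox6b1 was 0.360 and 0.349 in Runx2_cHom_KO, against 0.285 and 0.555 in Runx2_cHet_KO, with overlapping groups. Cox7a1, a muscle form, was at 1.39 FPKM in Col10+ and 0.183 FPKM in Col2+ cells.

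The comparisons use separate tables and no common libraries. Over the 76 members in both, 26 were lower in Runx2_cHom_KO and in Col10+, 43 were lower in Runx2_cHom_KO and higher in Col10+, 4 were higher in both and 3 were higher in Runx2_cHom_KO and lower in Col10+. Across genes, which are not independent replicates, Pearson's r of the differences was -0.04 and Spearman's rho -0.12 (n = 76). Among the 8 genes called in osteoblasts, Uqcr11 was 1.77-fold higher in Col10+ cells and Ndufa12 was 1.49-fold lower.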

How the data were processed

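RNA sequencing of 4 groups of mouse skeletal cells was analysed from the deposited tables. The values are FPKM computed by the authors, per the file headers, with 1 value per chondrocyte sort and 1 per osteoblast library. TopHat2 2.1.0, Cufflinks and Cuffdiff 2.2.1 and build mm9 are named in the submitters' processing notes, without their order. The sources used here do not say how replicates were combined into a sort's value, nor how reads shared with processed copies of these genes were assigned. A further value column (1, chondrocytes) matched no sample and was not used.

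Rows with no gene name (3444, chondrocyte table) and rows named by a calendar date (25 and 26) were left out. Where a name had several rows, the one with the highest mean was kept, and rows of several names were tested but not counted as members. Osteoblast values were tested as log2(FPKM + 1) with limma 3.58.1 in R 4.3.3 (trended, robust variances) on genes that reached 1 FPKM in at least 2 libraries, adjusted over all of them by Benjamini-Hochberg, and the procedure was tested on simulated data. Calls were made at an adjusted p under 0.05. The log scale understates changes of low genes. In chondrocytes the limit was a difference of 1 (2-fold) with the higher sort at 5 FPKM or more. Depth was unknown; in rows under 0.06 FPKM 1 read in Runx2_cHom_KO libraries 1 and 2 was worth 1.25 and 1.18 times a read in Runx2_cHet_KO library 1, the deepest, and no counting interval was computed. Named genes were the isoform pairs, core subunits, the extremes of each complex in each comparison, called members, and changed genes of the related lists. Members and lists were chosen with earlier results of these data known. Alternatives were other pseudocounts, filters, variances and scaling, a replicate block and leaving out each library.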

Additional observations from a re-analysis of the deposited data

How the results depend on the processing

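Under the alternatives run, the osteoblast medians of all members and of complexes I to V stayed below 0, and the number of members called did not keep its size. In place of 8 called lower, limma called 1 with no filter on low values, 1 with neither trended nor robust variances and 0 to 16 when single libraries were left out. Calls over all genes also fell, from 422 lower of 11909 tested. They were 137 of 18312 with no filter, 180 of 11909 with neither trended nor robust variances and 145 of 11909 with the replicate block. In each of these fits 1 of the 8 members stayed called, of 79, 76 and 76 members tested. The excess of lower calls among members in the reported fit (10.5% against 3.54% of all genes) thus depended on the fit, and 1 called member shows no such excess. A pseudocount of 0.1 left all 8 called and centred columns 6 of them. Called higher were 0 to 1, and past 2-fold 0 to 2, when single libraries were left out. The fit with the replicate number as a block called 1 (Uqcr11). Same-numbered libraries did not deviate together (r = -0.05 over 11909 genes). This compares 1 difference per genotype, so it cannot settle whether same-numbered libraries were prepared as pairs, which the labels do not say. Leaving out single libraries moved the median to between -0.33 and -0.25 for all members, -0.28 and -0.19 for complex I, -0.56 and -0.31 for complex II, -0.48 and -0.28 for complex III, -0.39 and -0.37 for complex IV, and -0.40 and -0.32 for complex V. Complex IV was at -0.33 with centred columns and complex V at -0.37 with a pseudocount of 0.1. Among the isoforms, Cox7a2 (-0.0068) was at 0.017 with centred columns, 0.17 without Runx2_cHet_KO replicate 1 and 0.04 without Runx2_cHom_KO replicate 2, Atp5g2 ranged from -0.12 to 0.049 and Ndufa4l2 from -0.048 to 0.78 as single libraries were left out, both turning sign without Runx2_cHet_KO replicate 1. In the chondrocytes centred columns gave 6 members 2-fold higher in Col10+ and medians of 0.39 over all members and 0.32, 0.49, 0.026, 0.65 and 0.42 for complexes I to V, and complex I was at -0.022 over members at 10 FPKM or more. Apart from the construction of each alternative, the cause of these changes was not tested. With 2 libraries a group and no counts, precision is limited by the number of libraries.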
